A study of Homo sapiens with 17 samples.

Results

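The genes described here encode the machinery of mitosis: 7 outer kinetochore proteins, 6 centromere proteins, 6 spindle checkpoint proteins, 6 mitotic kinases and chromosomal passengers, 5 cyclins, cyclin-dependent kinase and phosphatase genes, 4 kinesin and spindle genes, and 9 condensin and topoisomerase genes. They are 43 of the 20037 protein-coding genes of the annotation, chosen by name with earlier results of these data known. Each was looked up in lists of chromatin intervals that carry the histone variant H2A.Z. The cells were Caco-2/15, derived from a human colon carcinoma, which acquire features of absorptive enterocytes after they reach confluence. Lines were heterozygous H2AFV-Flag (the tag is on H2A.Z.2) or heterozygous H2AFZ-Flag (the tag is on H2A.Z.1), edited by CRISPR-Cas9, so that an untagged copy of the same gene remained in every culture. The number of clones behind each line is not stated in the labels. Chromatin was precipitated with Flag antibody from cells 7 days after confluence (postconfluent) and from subconfluent cells. This gave 4 groups of 2 lists, from experiments named Exp1 and Exp2: H2A.Z.2 postconfluent, H2A.Z.1 postconfluent, H2A.Z.2 subconfluent and H2A.Z.1 subconfluent. The labels name 17 samples, of which these 8 are used.

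H2A.Z replaces ordinary H2A in nucleosomes beside the starts of many genes, and its isoforms H2A.Z.1 and H2A.Z.2 are products of separate genes that differ by only a few amino acids. In mitosis, cyclin B and CDK1 drive entry, condensins compact the chromosomes, the kinetochore joins each chromosome to spindle microtubules, and the spindle checkpoint holds anaphase back until every kinetochore is attached. The outer kinetochore contacts microtubules through the NDC80 complex, which is built from the proteins NDC80, NUF2, SPC24 and SPC25. Many of these genes are transcribed mainly in G2 and M phase, and their promoters are known for cell cycle homology regions (CHR) and CCAAT boxes, which are read by the MuvB complexes and by NF-Y. When intestinal epithelial cells stop dividing and differentiate, mitotic genes are as a rule switched off.

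Promoters of 7 of the genes are printed because the results turn on them: the 4 genes of the NDC80 complex, the kinase gene PLK1, the centromere gene CENPN, whose interval ranked highest on average, and the condensin gene SMC2, whose listed start lies inside its annotated gene. The sequences are from RefSeq, build GRCh38.p14, and each runs 5′ to 3′ from 170 bases before the start of transcription to 30 bases from it. Capitals mark CHR elements, searched as TTTGAA and also as its variant TTCGAA, boxes with the letters CCAAT, and E2F sites, searched as TTCCCGC and also as the variant TTGGCGC, each on both strands. The windows are SPC24 chr19:11155753-11155952 (minus strand), SPC25 chr2:168890401-168890600 (minus strand), NDC80 chr18:2571387-2571586 (plus strand), NUF2 chr1:163321784-163321983 (plus strand), PLK1 chr16:23678719-23678918 (plus strand), CENPN chr16:81007044-81007243 (plus strand) and SMC2 chr9:104094139-104094338 (plus strand).
SPC24: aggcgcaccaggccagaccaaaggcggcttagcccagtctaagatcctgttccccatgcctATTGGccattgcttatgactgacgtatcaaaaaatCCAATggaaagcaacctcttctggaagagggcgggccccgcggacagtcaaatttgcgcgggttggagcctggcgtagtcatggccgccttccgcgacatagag
SPC25: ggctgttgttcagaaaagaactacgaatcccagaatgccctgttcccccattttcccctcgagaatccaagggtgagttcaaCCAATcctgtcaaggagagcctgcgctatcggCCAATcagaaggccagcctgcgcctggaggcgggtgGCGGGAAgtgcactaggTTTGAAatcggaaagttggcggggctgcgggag
NDC80: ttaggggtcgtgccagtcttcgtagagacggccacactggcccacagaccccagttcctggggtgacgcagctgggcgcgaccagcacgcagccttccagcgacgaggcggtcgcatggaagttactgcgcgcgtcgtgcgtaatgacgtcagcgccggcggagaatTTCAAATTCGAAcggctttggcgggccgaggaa
NUF2: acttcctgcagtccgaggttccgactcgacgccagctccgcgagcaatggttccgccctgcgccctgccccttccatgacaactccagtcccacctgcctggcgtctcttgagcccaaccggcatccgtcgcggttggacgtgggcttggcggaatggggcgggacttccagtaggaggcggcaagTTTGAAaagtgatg
PLK1: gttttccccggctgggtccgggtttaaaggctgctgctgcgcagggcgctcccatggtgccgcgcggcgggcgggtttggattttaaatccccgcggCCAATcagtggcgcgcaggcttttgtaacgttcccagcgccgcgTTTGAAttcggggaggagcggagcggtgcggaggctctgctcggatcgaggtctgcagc
CENPN: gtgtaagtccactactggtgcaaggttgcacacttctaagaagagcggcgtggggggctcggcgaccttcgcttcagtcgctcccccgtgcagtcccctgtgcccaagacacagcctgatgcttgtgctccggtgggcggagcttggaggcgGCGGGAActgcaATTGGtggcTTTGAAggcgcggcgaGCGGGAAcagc
SMC2: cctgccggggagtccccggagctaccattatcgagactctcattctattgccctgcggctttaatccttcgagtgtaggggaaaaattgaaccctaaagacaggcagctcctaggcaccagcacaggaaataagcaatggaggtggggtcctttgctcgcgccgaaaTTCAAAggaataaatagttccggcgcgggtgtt
With the start at +1, SPC25 has a CHR at −3, CCAAT boxes at −88 and −56 and an E2F match at −20 in this window, NDC80 has adjoining CHR matches at −3 and 4, and NUF2 has a CHR at 17. In the same window SPC24 has CCAAT boxes only, at −109 and −74.

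These letters were common in the promoters of the mitotic genes. Of the 35 genes with a promoter in the table, 300 bases from 250 before to 50 after the start, 23 (65.7%) held a CHR, against 13.6% of all 15843 protein-coding promoters. For each gene only the most upstream listed start was searched, so matches at other starts were not counted. A CCAAT box was found in 24 (68.6%), against 36.4% of all promoters, and both elements together in 16 (45.7%), against 5.67%. E2F matches were found in 6 (17.1%), against 12.2%. Only DSN1, CENPE and NCAPD3 held none of the 3 elements (8.57%), against 49.1% of all promoters. In CDCA8 a pair of the matches overlapped. Base composition was close to that of all promoters, with a median GC content of 61.7% against 62.7% and a median of 25 against 22 CpG dinucleotides. A match describes the letters only, and no factor was measured here. CENPH, TTK, BUB3, KNL1, BIRC5, TPX2, AURKA and NCAPH2 had no entry.

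The deposited lists held 30603 to 79425 intervals, and each was reduced to its 30603 strongest by −log10 p-value. A gene counts as occupied where an interval overlaps the 1 kb on either side of either annotated end, and its value is the percentile, within its own list, of the authors' fold enrichment of the strongest such interval, where 100 is the top of the list. Values of a group are given as Exp1 and then Exp2. The reduced lists occupied 59.6% to 62.0% of all genes, and their median interval widths ran from 474 to 873 bp, narrowest in the H2A.Z.2 subconfluent Exp2 list. That list is the shortest and was used whole, and its weakest −log10 p was 5.19, against up to 16.8 in the other lists. The interval names begin with 3 different codes, taken here as run names, although the labels do not say so. The H2A.Z.1 Exp1 lists share one, the H2A.Z.2 Exp1 lists another, and all Exp2 lists the third. States can therefore be compared within a run, while in Exp1 the isoform and the run cannot be told apart. Of 10 epithelial and intestinal markers, CDH1, CDX1, CDX2 and HNF4A were occupied in all 8 lists (40%, against 54.5% of all genes). Another 5 were occupied in 4 to 6 lists and LGALS4 in none. Of 12 markers of other lineages, COL1A1 was occupied in all 8 (8.33%), 4 in 4 to 7 lists and 7 in none. Peak lists record where H2A.Z lies and not gene expression, so these counts do not check the labelled cell type.

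At 30603 intervals per list, tagged H2A.Z marked nearly all of the mitotic genes in both states and with both isoforms. In all 8 lists 41 of the 43 genes (95.3%) were occupied, against 10919 of all 20037 genes (54.5%). Counting only annotated starts, 34 of 35 mitotic genes were occupied in all 8 lists, against 57.8% of 15843 genes. At this list length no mitotic gene had an interval in each list of 1 group and in neither list of the group compared. The groups compared differ by isoform or state alone. Over all genes 2.64% did, a share so low that 0 of 43 is no result about the mitotic genes. The 41 genes in all 8 lists also cannot count here. For H2A.Z.2 the background shares were 0.664% of all genes in postconfluent cells only and 0.429% in subconfluent cells only. For H2A.Z.1 the background shares were 0.509% in postconfluent cells only and 0.594% in subconfluent cells only. Between isoforms, 0.14% of all genes were present with H2A.Z.2 only and 0.499% with H2A.Z.1 only in postconfluent cells, and 0.17% with H2A.Z.2 only and 0.649% with H2A.Z.1 only in subconfluent cells. The median over the 41 genes of their mean percentile was 77.0, against 76.9 over the 10919 genes.

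Both exceptions had an interval nearby. AURKB, the catalytic kinase of the chromosomal passenger complex that corrects faulty attachments, was occupied in 7 of 8 lists, with percentiles of 56.8 and 47.9 for H2A.Z.2 and 45.2 for H2A.Z.1 Exp1 in postconfluent lists, against 69.4 and 84.2 for H2A.Z.2 and 84.9 and 13.7 for H2A.Z.1 in subconfluent lists. The H2A.Z.1 postconfluent Exp2 list lacked it at 30603 intervals and held it when used whole. SMC2, the ATPase subunit common to both condensins, was occupied at its annotated ends in no list. Its listed start, inside the gene, carried an interval in every list, and the nearest edge of that interval lay 5269 to 5350 bp from the annotated gene end. There SMC2 stood at percentiles of 91.6 and 95.1 for H2A.Z.2 and 72.8 and 84.2 for H2A.Z.1 in postconfluent lists, against 86.9 and 93.3 for H2A.Z.2 and 96.4 and 78.3 for H2A.Z.1 in subconfluent lists. The states overlapped at SMC2.

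**Figure D1:**
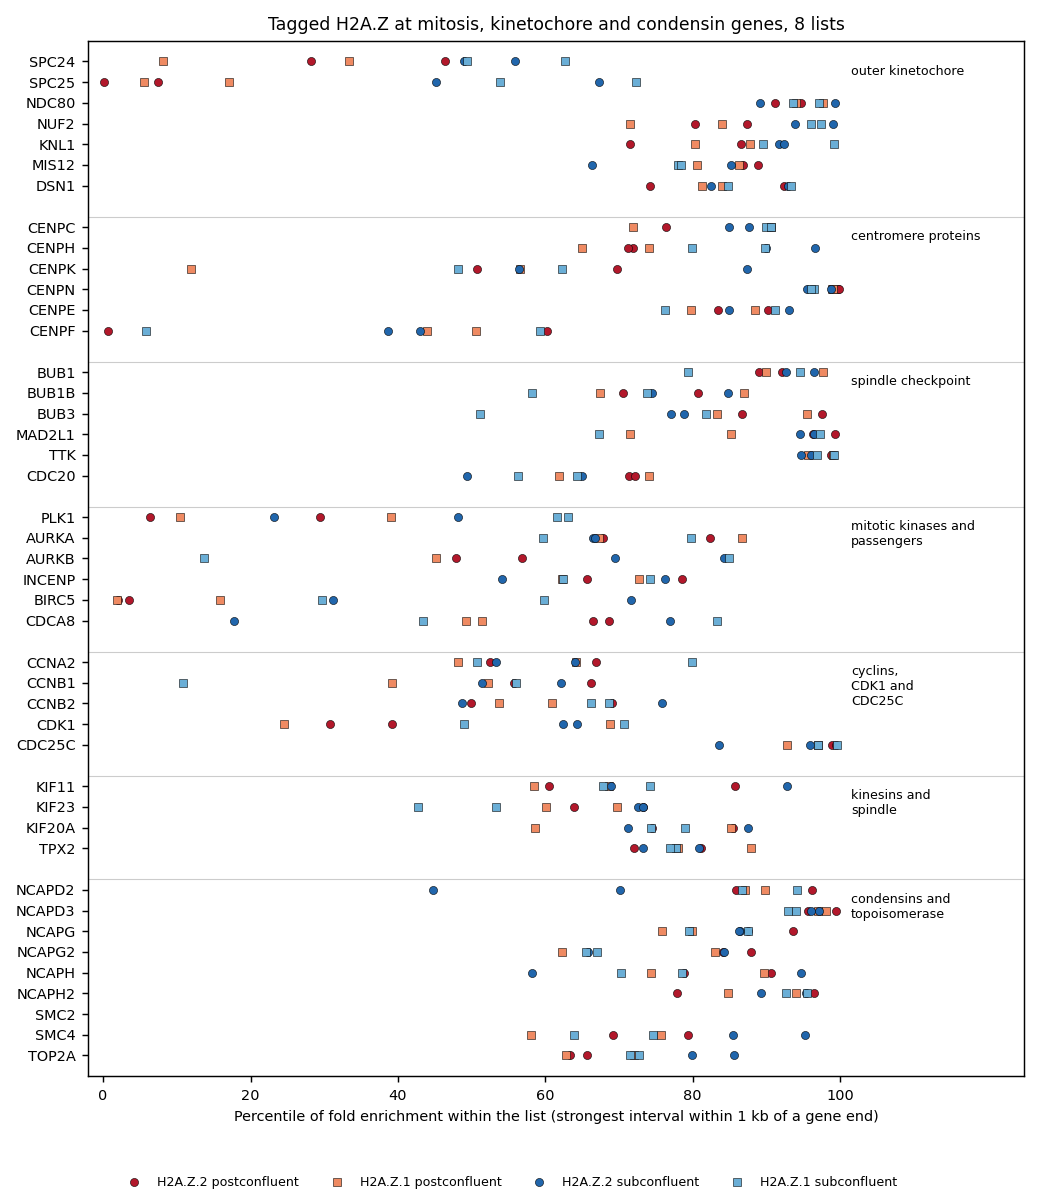
Percentile of fold enrichment within the list (horizontal axis) for each of the 43 mitotic genes (rows, by role), with 1 point per list coloured by group and no point where the gene is not occupied. Most genes lie above 50 in every list, NDC80, CENPN, TTK and NCAPD3 stay near the top, SPC25 and BIRC5 separate by state, and SMC2 has no point.

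Strength differed widely between genes of the same structure. Mean percentiles over the lists were above 50 for 36 of the 42 occupied genes and above 90 for 7, and 6 were below 50. Among outer kinetochore genes, NDC80, whose product holds the microtubule-binding calponin-homology fold, was highest with 94.7 and 91.1 for H2A.Z.2 and 94.0 and 97.7 for H2A.Z.1 in postconfluent lists, against 89.1 and 99.3 for H2A.Z.2 and 97.1 and 93.5 for H2A.Z.1 in subconfluent lists. The 4 partners of the NDC80 complex were thus far apart, with means over the 8 lists of 94.6 for NDC80, 88.7 for NUF2, 41.6 for SPC24 and 33.6 for SPC25. CENPN, which recognises the centromeric CENP-A nucleosome, had the highest mean of all at 98.0. CENPF, a large kinetochore and nuclear matrix protein, was lowest of its class, with 0.714 and 60.3 for H2A.Z.2 and 50.6 and 43.9 for H2A.Z.1 in postconfluent lists, against 43.1 and 38.6 for H2A.Z.2 and 59.3 and 5.81 for H2A.Z.1 in subconfluent lists. CENPF was thus near the bottom in 1 list of each state, and the states overlapped.

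Among checkpoint genes, TTK, the MPS1 kinase that starts checkpoint signalling, had 99.0 and 98.8 for H2A.Z.2 and 99.0 and 95.6 for H2A.Z.1 in postconfluent lists, against 94.7 and 96.0 for H2A.Z.2 and 99.2 and 96.9 for H2A.Z.1 in subconfluent lists. CDC20, the activator of the anaphase-promoting complex, was lowest of that class with 71.3 and 72.1 for H2A.Z.2 and 74.1 and 61.9 for H2A.Z.1 in postconfluent lists, against 49.4 and 64.9 for H2A.Z.2 and 64.3 and 56.2 for H2A.Z.1 in subconfluent lists. In neither gene did the states separate. AURKA, the centrosomal Aurora kinase, led the kinases and passengers with 67.8 and 82.3 for H2A.Z.2 and 86.7 and 67.2 for H2A.Z.1 in postconfluent lists, against 66.4 and 66.7 for H2A.Z.2 and 79.8 and 59.7 for H2A.Z.1 in subconfluent lists. CCNB1, which encodes cyclin B1, had 66.2 and 55.7 for H2A.Z.2 and 52.3 and 39.2 for H2A.Z.1 in postconfluent lists, against 51.4 and 62.1 for H2A.Z.2 and 10.9 and 56.0 for H2A.Z.1 in subconfluent lists. Both genes overlapped between states, and CCNB1 was low only in the H2A.Z.1 subconfluent Exp1 list.

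Kinesin and spindle genes had the narrowest range of means, between TPX2, the spindle assembly factor that activates Aurora A, at 78.5 and KIF23, a central spindle kinesin, at 63.6. TPX2 had 81.1 and 72.0 for H2A.Z.2 and 87.9 and 78.0 for H2A.Z.1 in postconfluent lists, against 73.2 and 80.8 for H2A.Z.2 and 77.7 and 77.0 for H2A.Z.1 in subconfluent lists. KIF23 had 63.9 and 73.2 for H2A.Z.2 and 69.8 and 60.1 for H2A.Z.1 in postconfluent lists, against 72.6 and 73.3 for H2A.Z.2 and 42.8 and 53.3 for H2A.Z.1 in subconfluent lists. The states overlapped at both. NCAPD3, a condensin II subunit, had 99.4 and 95.6 for H2A.Z.2 and 98.1 and 97.0 for H2A.Z.1 in postconfluent lists, against 96.0 and 97.2 for H2A.Z.2 and 93.0 and 94.0 for H2A.Z.1 in subconfluent lists. TOP2A, the topoisomerase that untangles sister chromatids, had 63.4 and 65.6 for H2A.Z.2 and 72.0 and 62.8 for H2A.Z.1 in postconfluent lists, against 79.9 and 85.6 for H2A.Z.2 and 71.5 and 72.7 for H2A.Z.1 in subconfluent lists. Both overlapped between states by a small margin, NCAPD3 mostly higher and TOP2A mostly lower after confluence.

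The first comparison was between growth states, over both isoforms. SPC25 ranked lower after confluence. The outer kinetochore genes NUF2, SPC24 and KNL1, and also BIRC5, CENPH and PLK1, had lower values that did not pass the adjusted test. BUB3, CENPN and MIS12 were higher, also without passing it. SPC25 (chromosome 2, 168861521 to 168890430, minus strand) stood at percentiles of 0.142 and 7.44 for H2A.Z.2 and 17.1 and 5.50 for H2A.Z.1 in postconfluent lists, against 67.3 and 45.2 for H2A.Z.2 and 72.4 and 53.8 for H2A.Z.1 in subconfluent lists. All 4 postconfluent lists were below all 4 subconfluent ones, with means of 7.55 ± 7.08 and 59.7 ± 12.4 (SD, n = 4 each). The authors' fold enrichments at SPC25 were 2.78 and 4.46 (H2A.Z.2) and 5.06 and 5.48 (H2A.Z.1) in postconfluent lists, against 8.25 and 5.67 (H2A.Z.2) and 10.0 and 8.30 (H2A.Z.1) in subconfluent lists, and its intervals were 404 to 639 bp wide in postconfluent and 542 to 802 bp in subconfluent lists.

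For the test, the 10919 genes occupied in all 8 lists were ranked within each list and the ranks turned into normal scores, in units of SD; a score is a gene's place in its list and carries no amount of H2A.Z. SPC25 had a score difference, postconfluent minus subconfluent, of −2.02 (SE 0.370, limma adjusted p = 0.0370), lower in 4 of 4 comparisons within a run and isoform. These were −3.11 for H2A.Z.2 and −1.93 for H2A.Z.1 in Exp1, and −1.42 for H2A.Z.2 and −1.64 for H2A.Z.1 in Exp2. Among the 41 mitotic genes ranked it was the only call; among all ranked genes limma called 6 (0.055%), of which 5 were higher (0.0458%) and SPC25 was the only lower one (0.00916%). The call rests on most of the lists: without either H2A.Z.2 subconfluent list, either H2A.Z.1 subconfluent list, the H2A.Z.2 postconfluent Exp1 or the H2A.Z.1 postconfluent Exp2 list, the limma adjusted p of SPC25 was 0.0529 to 0.265, with differences of −1.81 to −2.25. With whole lists the difference was −1.70 (limma adjusted p = 0.0659). In whole lists, which differ in length, SPC25 stood at 3.39 and 38.0 for H2A.Z.2 and 53.9 and 56.4 for H2A.Z.1 after confluence. Subconfluent values were 82.1 and 45.2 for H2A.Z.2 and 81.9 and 78.8 for H2A.Z.1, so the states overlapped across isoforms.

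At an unadjusted limma p under 0.05, 9 of the 41 mitotic genes differed by state (22.0%), against 9.13% of all ranked genes: 7 lower, against 4.67% of all genes, and 2 higher, against 4.46%. In 6 of the 41 (14.6%) every postconfluent list lay below every subconfluent list, against 2.62% of all ranked genes, and in 2 (4.88%) above, against 2.77%. The genes were chosen with earlier results of these data known, so these shares are no independent support for a difference. Leaving out 1 list in turn gave 4 to 9 lower and 0 to 3 higher genes; the 4 lower genes, against 3.78% of all ranked genes, came without the H2A.Z.1 postconfluent Exp2 list, in which the median percentile of the mitotic genes was the lowest of the 8 lists, at 68.7. Without the H2A.Z.2 subconfluent Exp2 list, in which that median was the highest, at 85.4, 5 were lower. The median over all occupied genes was between 74.0 and 76.6 in the 8 lists. Over all 41 genes the median score difference was −0.036, with 17 above 0 and 24 below, against −0.000821 over all ranked genes, and it had no stable sign: it was 0.0149 without the H2A.Z.2 subconfluent Exp2 list, 0.00107 without the H2A.Z.1 postconfluent Exp2 list and 0.0579 without the H2A.Z.1 subconfluent Exp1 list. Among the 7 outer kinetochore genes, 6 were below 0, with a median of −0.86, and 4 of them were among the unadjusted lower genes. Over all ranked genes 5469 of 10919 were below 0. Of the 6 centromere genes 5 were below 0 (median −0.22), whereas 5 of the 6 spindle checkpoint genes were above 0 (median 0.21). Medians of the other classes ran from −0.23 to 0.14. The classes were not tested as sets.

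NUF2 (chromosome 1, 163321954 to 163355759), the partner of NDC80 in the microtubule-binding head, had 87.3 and 80.3 for H2A.Z.2 and 84.0 and 71.6 for H2A.Z.1 in postconfluent lists, against 93.9 and 99.1 for H2A.Z.2 and 96.0 and 97.4 for H2A.Z.1 in subconfluent lists. The states did not overlap, and the score difference of −1.32 (SE 0.360, limma adjusted p = 0.251) missed the threshold. SPC24, which pairs with SPC25 at the base of the complex, had 46.3 and 28.3 for H2A.Z.2 and 33.4 and 8.10 for H2A.Z.1 in postconfluent lists, against 48.9 and 55.9 for H2A.Z.2 and 62.7 and 49.4 for H2A.Z.1 in subconfluent lists. These states were also apart, by a narrow margin for H2A.Z.2 in Exp1, with a score difference of −0.86 (SE 0.356, limma adjusted p = 0.453). NDC80, the remaining partner, had a difference of −0.18 (SE 0.378, limma adjusted p = 0.923), with overlapping states. KNL1, the scaffold that recruits BUB1 and BUB1B, had 86.6 and 71.5 for H2A.Z.2 and 87.7 and 80.3 for H2A.Z.1 in postconfluent lists, against 91.7 and 92.4 for H2A.Z.2 and 99.2 and 89.6 for H2A.Z.1 in subconfluent lists, a separation with a score difference of −0.94 (SE 0.383, limma adjusted p = 0.445).

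BIRC5 (chromosome 17, 78214253 to 78225635) encodes survivin, the passenger that brings Aurora B to centromeres, and had 2.01 and 3.55 for H2A.Z.2 and 15.9 and 1.86 for H2A.Z.1 in postconfluent lists, against 71.7 and 31.2 for H2A.Z.2 and 29.7 and 59.8 for H2A.Z.1 in subconfluent lists. No list overlapped, and the score difference was −1.67 (SE 0.409, limma adjusted p = 0.179). The differences within a run and isoform were −2.73 for H2A.Z.2 and −0.317 for H2A.Z.1 in Exp1, and −1.29 for H2A.Z.2 and −2.33 for H2A.Z.1 in Exp2. When intervals were ranked by the authors' −log10 p instead of fold enrichment, BIRC5 passed as well, at −1.82 (limma adjusted p = 0.0262). CENPH (chromosome 5, 69189583 to 69210357), a subunit of the constitutive centromere network, had 71.8 and 71.2 for H2A.Z.2 and 74.1 and 64.9 for H2A.Z.1 in postconfluent lists, against 89.99 and 96.6 for H2A.Z.2 and 89.8 and 79.9 for H2A.Z.1 in subconfluent lists, a score difference of −1.08 (SE 0.349, limma adjusted p = 0.331) with no overlap. PLK1 (chromosome 16, 23678889 to 23690367), the kinase of mitotic entry and kinetochore attachment, had 6.33 and 29.5 for H2A.Z.2 and 39.0 and 10.4 for H2A.Z.1 in postconfluent lists, against 23.2 and 48.1 for H2A.Z.2 and 63.1 and 61.6 for H2A.Z.1 in subconfluent lists. PLK1 states overlapped, with a score difference of −0.96 (SE 0.359, limma adjusted p = 0.381).

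**Figure D2:**
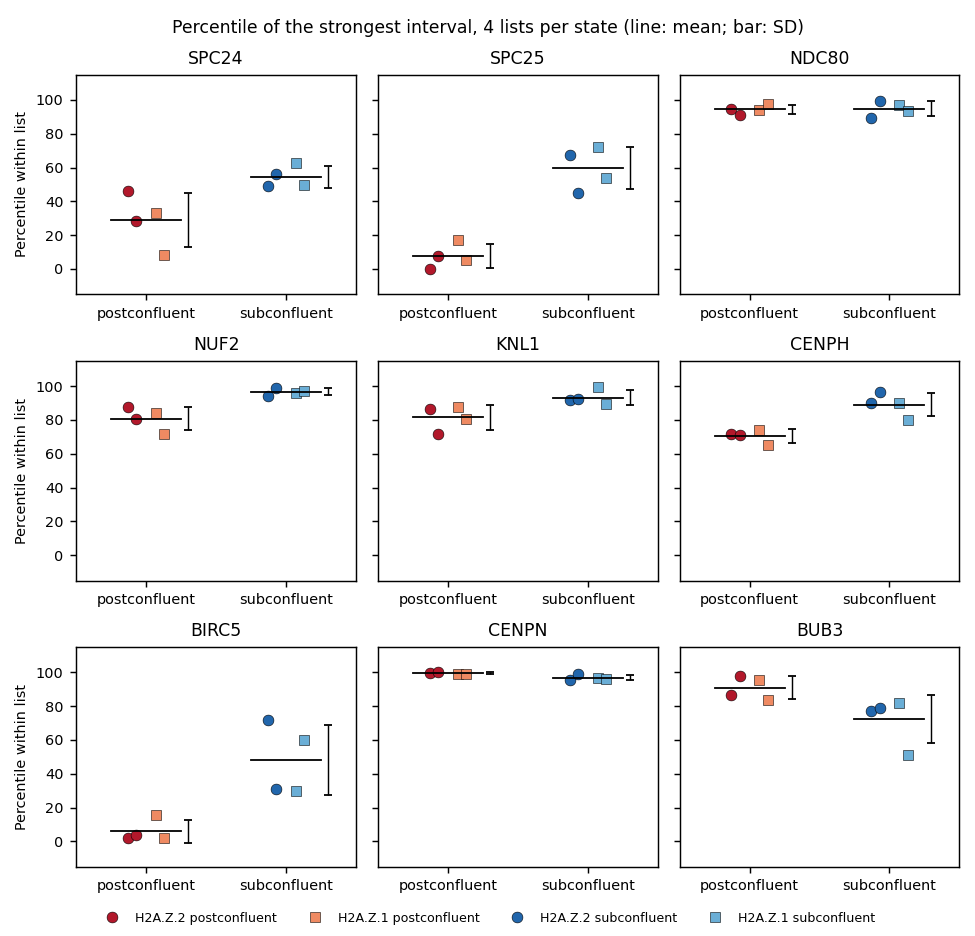
Percentile within the list (vertical axis) in 4 postconfluent and 4 subconfluent lists for the NDC80 complex genes and the other genes whose states did not overlap; the horizontal line is the mean and the bar beside it the SD. SPC25 averages 7.55 in postconfluent and 59.7 in subconfluent lists, while NDC80 stays at 94.4 and 94.7.

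The genes with the highest differences did not pass the adjusted test. BUB3, a checkpoint adaptor that binds KNL1, had 86.7 and 97.6 for H2A.Z.2 and 95.6 and 83.3 for H2A.Z.1 in postconfluent lists, against 77.0 and 78.8 for H2A.Z.2 and 81.8 and 51.1 for H2A.Z.1 in subconfluent lists. CENPN had 99.8 and 99.9 for H2A.Z.2 and 98.9 and 99.0 for H2A.Z.1 in postconfluent lists, against 95.5 and 98.7 for H2A.Z.2 and 96.5 and 96.0 for H2A.Z.1 in subconfluent lists. All postconfluent lists were above all subconfluent lists at both genes, with score differences of 1.10 for BUB3 (SE 0.394, limma adjusted p = 0.367) and 0.84 for CENPN (SE 0.342, limma adjusted p = 0.445). MIS12, a subunit of the complex that links inner and outer kinetochore, had 86.8 and 88.8 for H2A.Z.2 and 80.5 and 86.3 for H2A.Z.1 in postconfluent lists, against 66.3 and 85.2 for H2A.Z.2 and 78.0 and 78.4 for H2A.Z.1 in subconfluent lists. Its states overlapped, and its difference was 0.42, or 0.23 without the H2A.Z.2 subconfluent Exp1 list. NCAPD3 also had 0.42, which was 0.18 without the H2A.Z.2 postconfluent Exp1 list, 0.66 without the H2A.Z.2 postconfluent Exp2 list and 1.22 where an interval had to cover at least 200 bp of the window. NCAPD2 had 0.72 (SE 0.364, limma adjusted p = 0.561), a value that moved with the window: it was 0.16 with 2 kb on either side of the gene's ends and 1.58 (limma adjusted p = 0.161) with the 200 bp of overlap. The other 16 genes, among them BUB1, CDK1, DSN1, KIF11, INCENP and 4 condensin subunits, had mean percentiles from 51.2 at CDK1 to 91.5 at BUB1 and score differences from −0.69 at CDK1 to 0.41 at NCAPG2, all with overlapping states.

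**Figure D3:**
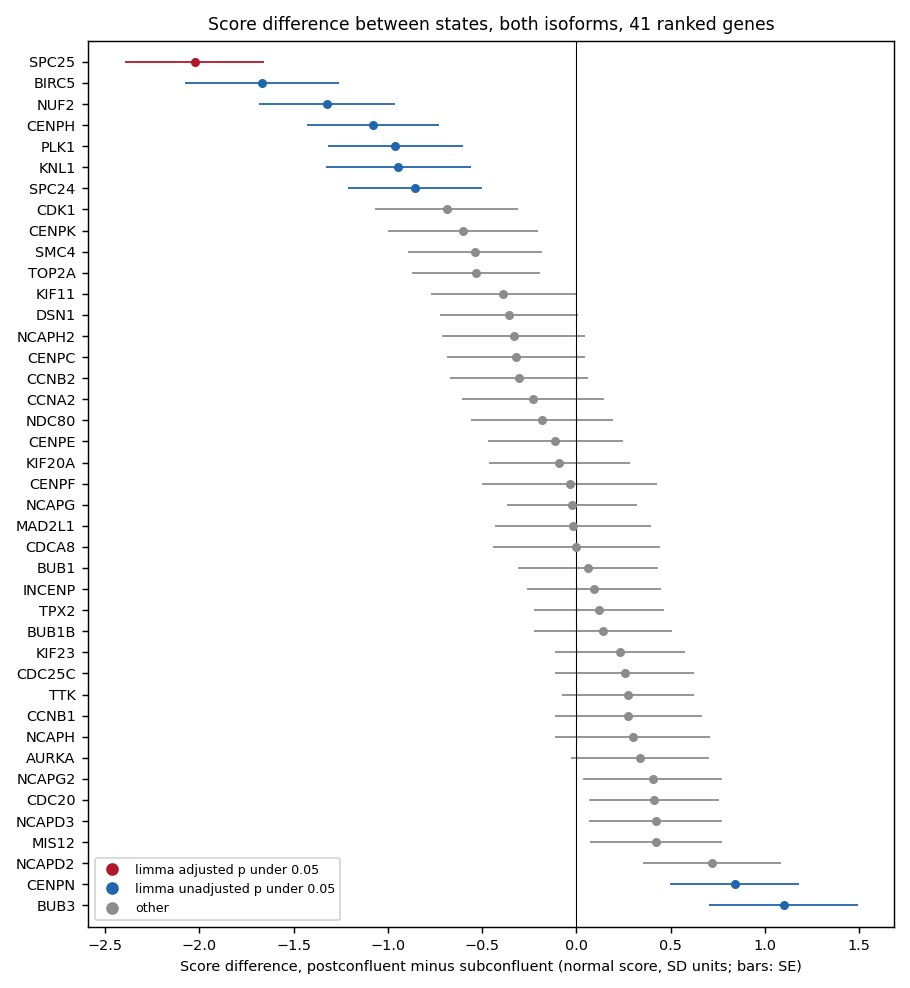
Score difference, postconfluent minus subconfluent, in SD units of the normal score (horizontal axis, bars show the SE) for the 41 ranked mitotic genes, ordered from lowest to highest. SPC25 at −2.02 is the only gene past the adjusted threshold, and 6 more lie lower and 2 higher at an unadjusted limma p under 0.05.

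When lists were shortened, the low postconfluent ranks of SPC25 and BIRC5 became absences. This rereads the same intervals and is no separate support, and results for both genes were known when the genes were chosen. In lists of 15301 intervals both genes were present in 4 of 4 subconfluent and 0 of 4 postconfluent lists, which is 2 of 43 mitotic genes (4.65%), against 0.155% of all genes. Lists reduced to equal covered length, which hold 14209 to 30603 intervals, gave the same genes, against 0.21% of all genes. PLK1 was present in 0 of 4 postconfluent and 3 of 4 subconfluent lists under both settings. No mitotic gene was present in 4 postconfluent lists alone under either, and at 30603 intervals neither direction held any, against 0.105% of all genes in postconfluent lists alone and 0.0848% in subconfluent lists alone. In the whole lists SPC25, BIRC5 and PLK1 were all present in 8 of 8, so their intervals stayed above the authors' threshold in postconfluent cells.

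Within each isoform, limma called no mitotic gene and no gene at all (0%) between states. For H2A.Z.2, 3 mitotic genes were higher and 4 lower at an unadjusted limma p under 0.05, against 2.81% and 3.02% of all ranked genes, or 5.83% in either direction. The lower ones were SPC25 at −2.27, BIRC5 at −2.01, CENPH at −1.37 and NUF2 at −1.23, and the higher ones NCAPD2 at 1.63, CDC25C at 1.23 and CENPN at 1.06. For H2A.Z.1, 1 was higher and 5 were lower, against 3.6% and 3.32% of all ranked genes, or 6.91% in either direction: BUB3 at 1.21, and SPC25 at −1.78, NUF2 at −1.42, BIRC5 at −1.32, PLK1 at −1.24 and SPC24 at −1.15. SPC25, NUF2 and BIRC5 were thus in the lower group with both isoforms, although none passed over all genes. The interaction of state and isoform gave 0 adjusted calls; at an unadjusted limma p under 0.05 it held CDC25C, the phosphatase that activates CDK1, at 1.96 (SE 0.737, limma adjusted p = 0.999863) and NCAPD2 at 1.82, against 1.61% of all ranked genes above 0, 1.57% below it and 3.18% in either direction.

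CDC25C had 98.9 and 99.4 for H2A.Z.2 and 92.7 and 97.0 for H2A.Z.1 in postconfluent lists, against 83.6 and 95.9 for H2A.Z.2 and 99.6 and 97.0 for H2A.Z.1 in subconfluent lists, so its H2A.Z.2 lists separated by state and its H2A.Z.1 lists did not. NCAPD2 (chromosome 12, 6494102 to 6531955), a condensin I subunit, had 85.8 and 96.2 for H2A.Z.2 and 89.8 and 87.1 for H2A.Z.1 in postconfluent lists, against 44.7 and 70.1 for H2A.Z.2 and 94.2 and 86.7 for H2A.Z.1 in subconfluent lists. The low H2A.Z.2 subconfluent values of NCAPD2 go with the reach of a neighbour's interval. The interval beyond the end of NCAPD2 lies at the start of GAPDH, the glycolytic enzyme gene annotated from 6534517. The nearest edge of that interval lay 689 and 528 bp from the NCAPD2 end for H2A.Z.2 and 448 and 229 bp for H2A.Z.1 in postconfluent lists, against 1220 and 1210 bp for H2A.Z.2 and 894 and 970 bp for H2A.Z.1 in subconfluent lists. Only the H2A.Z.2 subconfluent intervals therefore fell outside the window of 1 kb, although GAPDH's start was occupied in all 8 lists. At its own start, which shares an interval with MRPL51, NCAPD2 had 79.3 and 57.8 for H2A.Z.2 and 84.8 and 71.9 for H2A.Z.1 in postconfluent lists, against 44.7 and 70.1 for H2A.Z.2 and 46.3 and 67.03 for H2A.Z.1 in subconfluent lists. At that start the states overlapped for H2A.Z.2 and did not for H2A.Z.1.

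Between isoforms, over both states, limma called no mitotic gene and none of all ranked genes (0%), and 3 mitotic genes were higher with H2A.Z.2 at an unadjusted limma p under 0.05, against 1.79% of all ranked genes higher and 3.75% in either direction. MAD2L1 (chromosome 4, 120055623 to 120066848), the checkpoint protein that binds CDC20, had 99.2 and 96.3 for H2A.Z.2 in postconfluent and 94.5 and 96.4 in subconfluent cells, against 85.2 and 71.4 for H2A.Z.1 in postconfluent and 97.2 and 67.2 in subconfluent cells. The H2A.Z.1 Exp2 lists were low in both states, and the isoforms overlapped. Its score difference, H2A.Z.2 minus H2A.Z.1, was 1.19 (SE 0.414, limma adjusted p = 0.999), with 1.68 in Exp2, where the isoforms share a run, and 0.689 in Exp1, where they do not. CENPK, a centromere protein, had 50.7 and 69.7 for H2A.Z.2 in postconfluent and 56.4 and 87.4 in subconfluent cells, against 56.5 and 11.9 for H2A.Z.1 in postconfluent and 62.3 and 48.1 in subconfluent cells, a difference of 0.84 that was 1.73 in Exp2 and −0.0477 in Exp1. SMC4, the other condensin ATPase, had 69.2 and 79.3 for H2A.Z.2 in postconfluent and 85.4 and 95.2 in subconfluent cells, against 75.7 and 58.0 for H2A.Z.1 in postconfluent and 74.6 and 63.9 in subconfluent cells, a difference of 0.75 that was 1.29 in Exp2 and 0.21 in Exp1. The isoforms overlapped at both.

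No mitotic gene had every H2A.Z.2 list above or every one below all H2A.Z.1 lists, against 0.943% and 1.17% of all ranked genes. The lowest isoform differences were −0.65 for NCAPD2, which turned to 0.21 when an interval had to cover at least 200 bp of the window, −0.52 for PLK1 and −0.43 for SPC25. In postconfluent cells alone limma called 0 genes and MAD2L1, at 1.66, was the only mitotic gene at an unadjusted p under 0.05, against 1.64% of all ranked genes higher, 1.89% lower and 3.53% in either direction. In subconfluent cells limma also called 0, with SMC4 at 1.21 and KIF23 at 1.06 higher and NCAPD2 at −1.56 and CDC25C at −1.12 lower at an unadjusted p under 0.05, against 1.71% of all ranked genes higher, 2% lower and 3.71% in either direction. The lists with the lowest and the highest median percentile of the mitotic genes, H2A.Z.1 postconfluent Exp2 at 68.7 and H2A.Z.2 subconfluent Exp2 at 85.4, also lie on opposite sides of the isoform comparison. Without the one or the other of them the difference of CENPK was 0.52.

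Neighbours shared the intervals of many of these genes. In 16 of the 42 occupied genes the interval also reached an end of another protein-coding gene, such as METTL4 at NDC80, RGS5 at NUF2, CMC2 at CENPN, DCTN5 at PLK1 and FAM53C at CDC25C. That is 39.0% of the ranked mitotic genes, against 35.0% of all ranked genes, and the median mean percentile was 81.6 for the 16 and 74.6 for the other 25 ranked genes, against 76.90 and 76.87 among all ranked genes. SPC25, SPC24, BIRC5, CENPH, KNL1 and BUB3 shared theirs with no other protein-coding gene.

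Summits, the highest points of the intervals as deposited, lay on a fixed side of the start at some genes. Of the 33 genes with a listed start near the annotated end and an interval in all 8 lists, the summit was upstream in all 8 lists in 11 and downstream in all 8 in 7, and 15 had both. The median over genes of their median position was −228 bp, that is upstream. The most distant summits were at −1628 bp, upstream of KIF11, the mitotic motor Eg5, and 748 bp downstream of the start of CCNA2, which encodes cyclin A2. At SPC25 the summits lay 28 and 48 bp downstream of the start for H2A.Z.2 and 112 and 52 bp for H2A.Z.1 in postconfluent lists, against 129 and 162 bp for H2A.Z.2 and 177 and 177 bp for H2A.Z.1 in subconfluent lists. Every postconfluent summit of SPC25 was thus nearer the start than every subconfluent one, and all lay downstream of its CHR at −3. Genes whose summits separate in this way were not counted, and neither were summit sides over all genes. A difference in summit position by state was not tested.

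**Figure D4:**
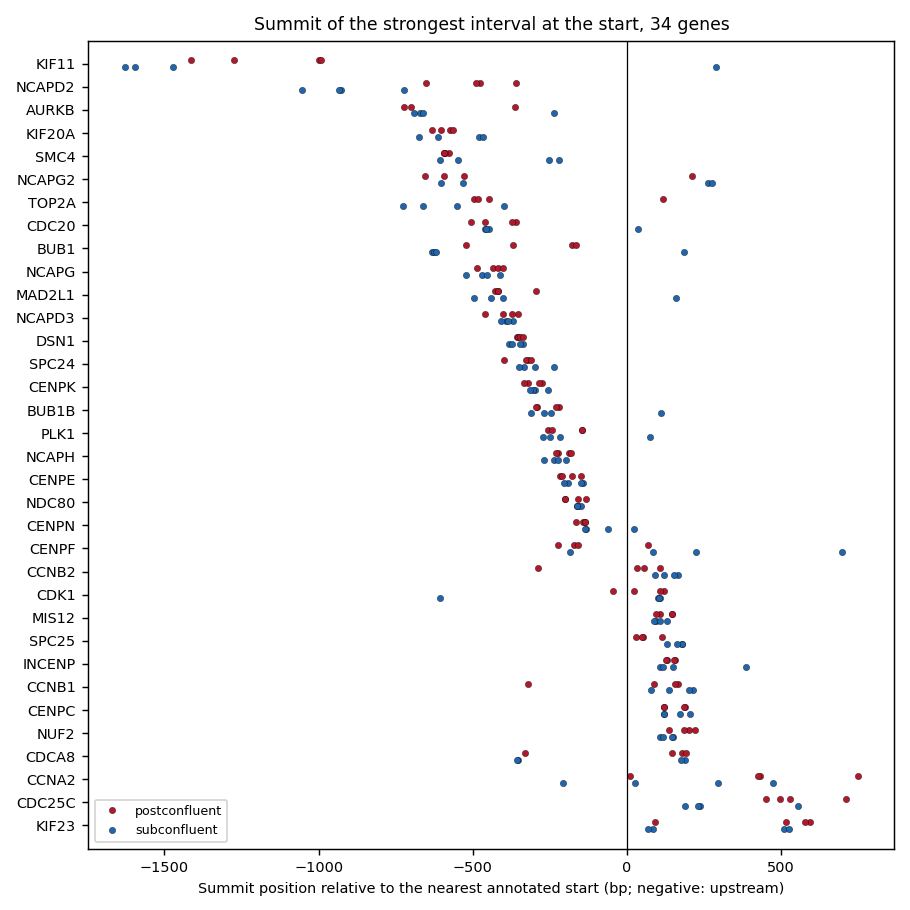
Position of the summit of the strongest interval relative to the nearest listed start in bp (horizontal axis, negative is upstream) for 34 mitotic genes with a listed start near an annotated end, with 1 point per list, in red for postconfluent and in blue for subconfluent lists. SPC25, NUF2 and INCENP have every summit downstream, while NCAPD2, SPC24 and NDC80 have every summit upstream.

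Of 73 further mitotic genes, 66 were occupied in all 8 lists (90.4%, against 54.5% of all genes), and none was called by state with limma. At an unadjusted limma p under 0.05, 8 were lower and 1 higher after confluence, against 4.67% and 4.46% of all ranked genes. In either direction that is 13.6%, against 9.13% of all ranked genes. The lower ones included the centrosomal kinase NEK2 at −1.42, the checkpoint recruiter KNTC1 at −1.41, the kinesin KIF14 at −1.35, the cohesin subunit SMC1A at −1.05 and separase, ESPL1, at −0.88, and the higher one was CKAP2, a microtubule-associated protein, at 1.01. Of 24 regulators of mitotic genes, 23 were occupied in all 8 lists (95.8%, against 54.5% of all genes). The repressor E2F7, at −1.52 (SE 0.412, limma adjusted p = 0.251), was the only one at an unadjusted limma p under 0.05 (4.35%, against 9.13%). The exception in occupancy was CDKN1A, which encodes the cell cycle inhibitor p21 and was occupied in some lists but not in all 8.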

How the data were processed

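ChIP-seq of Flag-tagged H2A.Z.2 or H2A.Z.1 in postconfluent and subconfluent Caco-2/15 cells gave a separate peak list for every sample, without pooling. Per the submitters' processing notes, hg38 was the genome build and BWA and deepTools were used; neither notes nor labels state the peak caller, its control or any scaling to spike-in chromatin. The deposited score is the −log10 q-value times 10, rounded down. The authors' fold enrichment is a ratio (fold) per interval. The deposited p-values and q-values are on a −log10 scale. The last deposited column is the distance of the summit from the interval's start in bp. These values were used to rank and filter intervals within a list, and where they are printed they only describe a peak. Because a peak list holds only intervals above a threshold, depth is unknown, no counting interval or floor can be given, and a missing interval does not show absence of H2A.Z.

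The 30603 intervals with the highest −log10 p were kept in every list, intervals overlapping the 1 kb on either side of either gene end by at least 1 bp were assigned, and the strongest was taken. Genes were protein-coding entries of RefSeq GRCh38.p14; strands and starts came from its promoter table for 35 of the 43 genes, and exons and introns were not used here. Normal scores of 10919 genes entered limma 3.58.1 under R 4.3.3, in a model of 4 groups with 7 contrasts tested 2-sided and Benjamini-Hochberg adjustment at 0.05 over all 10919 genes; the test was checked on simulated data. Labels say duplicates without naming separate cultures, so p-values measure the spread between these samples. The variance of each gene was moderated by limma toward that of all ranked genes. A p-value therefore does not rest on that gene's own spread alone. The genes and lists were chosen with earlier results of these data known, including those for SPC25, BIRC5, PLK1 and NCAPD2. Genes described in full are those past the threshold, those separated by presence, the 5 highest and 5 lowest by state, the 3 highest and 3 lowest by isoform, the highest and lowest mean of each role and those in no list; SPC24, KNL1 and AURKB were added after their values were seen. Alternatives changed list length, window, overlap, gene end, ranking value, replicates and a block for the experiment.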

Additional observations from a re-analysis of the deposited data

How the results depend on the processing

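The count of 41 of 43 genes occupied in all 8 lists depended on list length. Keeping the 15301 strongest intervals lowered it to 30, and cutting to equal cover lowered it to 29. Over all genes the count fell as well, from 10919 to 7562 and 8026 respectively. Whole lists gave 42 of the 43 genes, 1 fixed end 40 and the summit within 1 kb 39. Counting starts only gave 34 of the 35 genes with a listed start. The 2 kb window and the 200 bp of overlap left it at 41, and leaving out 1 list gave 41 or 42. The single call by state, SPC25, was lost (0 mitotic genes called) with whole lists, lists of 15301 intervals, lists of equal covered length, at least 200 bp of overlap and the summit within 1 kb. SPC25 was not ranked in the lists of 15301 intervals and of equal covered length, which fewer genes enter, and its limma adjusted p was 0.0659 with whole lists, 0.0588 with the overlap and 0.0569 with the summit rule; the cause was not tested. Ranking by −log10 p called 2, SPC25 and BIRC5. Leaving out 1 list in turn gave 0 to 1 calls. The other 6 score comparisons held 0 mitotic genes under every alternative run. At an unadjusted limma p under 0.05, 7 of 41 ranked mitotic genes were lower by state, against 4.67% of all ranked genes. With 15301 intervals it was 3 of 30, against 4.17%, and with equal covered length 3 of 29, against 4.31%. SPC24, SPC25, BIRC5 and PLK1 were not ranked under these 2 settings. With starts only it was 4 of 34, against 4.79%, and KNL1, CENPH and BIRC5 have no listed start. All-gene calls by state were 6, against 13 with whole lists, 44 ranked by −log10 p, 4 with a window of 2 kb, 5 at 1 fixed end, 3 each with starts only and with the summit rule, 2 with 200 bp of overlap, 0 with 15301 intervals or equal covered length and 0 to 12 without 1 list.

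Presence between groups held 0 of 43 genes at 30603 intervals, against 2.64% of all genes. With 15301 intervals it held 4 of 43 (AURKB, BIRC5, PLK1, SPC25), against 4.43% of all genes. With equal covered length it held 5 of 43 (BIRC5, CCNA2, CDCA8, PLK1, SPC25), against 4.20%. At 1 fixed end it held 1 of 43 (NCAPD2), against 2.69%. Without 1 list it held 0 to 1, which was AURKB without H2A.Z.1 postconfluent Exp1, against 4.89%. The isoform difference of NCAPD2 turned to 0.21 with 200 bp of overlap, under which the H2A.Z.1 subconfluent intervals at GAPDH, with edges 894 and 970 bp from its end, drop out by construction. Deviations of same-numbered lists of both states, which share a run within an isoform, correlated at 0.158 for H2A.Z.2 and 0.207 for H2A.Z.1 across 10919 genes, and all other same-numbered pairs at −0.053 to 0.0474, so the numbers were not taken as pairs of all groups. With the replicate block limma called 14 genes by state, 1 of them mitotic (SPC25, adjusted p = 0.0236), and 0 mitotic genes in the other contrasts. With the replicate block within isoform, an alternative added after the data were seen, it called 20 by state, 1 of them mitotic (SPC25, adjusted p = 0.0233), and 0 mitotic genes within either isoform or by interaction.

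Depth is unknown from peak lists, the lists differ in length and interval width, and ranks hold no absolute amount of H2A.Z. Isoform and run cannot be told apart in Exp1.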
